A study of Homo sapiens with 12 samples.

Results

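The effect of adding the BET inhibitor AZD to cells already exposed to the SYK inhibitor Ento was examined in SU-DHL-4, an established line of germinal centre B-cell-like diffuse large B-cell lymphoma (DLBCL) derived from a peritoneal effusion. Of the 12 RNA-Seq libraries of the study, 6 made up this comparison, namely 3 of cells with 1 µM entospletinib (Ento) and 3 of cells with 1 µM Ento and 0.01 µM AZD5153 (AZD). The other 6 libraries, 3 with DMSO as vehicle and 3 with 0.01 µM AZD, served for reference. All exposures lasted 72 h, the design text names biological replicates, and the replicate numbers 1 to 3 recur in every group. The comparison took every gene that passed a filter on low counts, 16835 of 46863 genes counted, with no selection by outcome. All values come from 1 cell line in bulk, so a smaller share of cells that express a gene and less of its RNA per cell cannot be told apart.

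SYK is the kinase that relays the signal of the B-cell receptor (BCR) and of its tonic activity to PI3K, PLCγ2 and NF-κB. BET proteins bind acetylated histones and recruit the elongation factor P-TEFb, so that BET inhibitors chiefly lower transcripts with a high need for pause release, while HEXIM1, an inhibitor of P-TEFb, typically rises. AZD5153 is bivalent, in that it binds both bromodomains of a BET protein.

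Libraries held between 19689990 and 23639984 counts with Ento and between 18121993 and 20889209 with Ento+AZD, and over all 12 libraries 1 count was worth 0.0393 to 0.0564 CPM (counts scaled to a common library size after TMM normalisation). All 12 B-lineage and germinal centre markers were counted in every group, with a summed level of 5820 to 9311 CPM with Ento and 6987 to 8980 CPM with Ento+AZD. Over all 12 libraries *MS4A1* alone gave 1703 to 3659 CPM, and *LMO2* ranged from 2.51 to 60.0 CPM, which the sum does not show. Of 13 T and NK cell markers 5 were at 0 in all libraries, and the sum of the list fell from between 7.12 and 10.1 CPM to between 3.67 and 4.45 CPM, led by *TRAC* and *CD3E*. Myeloid markers summed to 3.88 to 9.32 CPM with Ento and 5.13 to 8.67 CPM with Ento+AZD, with 2 of 10 at 0 throughout. Of 12 stromal and epithelial markers 8 were at 0 throughout, and the sum, 35.1 to 83.9 CPM with Ento and 36.2 to 87.5 CPM with Ento+AZD, was nearly all *PECAM1*. The mitochondrial RNA genes *RNR1* and *RNR2* took 1.77 to 2.23% of the counts with Ento and 2.27 to 2.74% with Ento+AZD. The part of these shifts in the results below was not tested.

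Added AZD lowered more genes than it raised. Genes with adjusted p below 0.05 whose log2 fold change exceeded 1 in size were taken as differentially expressed genes (DEGs). Of the 16835 genes tested, 416 were underexpressed DEGs (2.47%) and 148 overexpressed DEGs (0.879%) in Ento+AZD against Ento (quasi-likelihood test of edgeR, Benjamini-Hochberg adjusted). At the adjusted p alone, which is meant by "called" from here on, 2047 genes were lower (12.2%) and 1393 higher (8.27%). The model carried the replicate number as a term. Without it the DEGs were 83 instead of 564 and the called genes 206 instead of 3440, and without Ento replicate 3 the DEGs were 319. The 3 Ento and 3 Ento+AZD libraries did not overlap for 272 of the underexpressed and 99 of the overexpressed DEGs. Over all genes tested, 11.7% were lower and 11.5% higher without overlap. The direction was the same in all 3 numbered pairs for 412 and 147 of these DEGs. Of the genes described below, the calls of *DCXR*, *HEXIM1*, *ZCCHC24*, *MCM5*, *RASSF6*, *SUGCT*, *FSD1*, *CAMKV*, *FAM222A*, *DTX3L*, *PARP9*, *EPSTI1*, *CD84*, *ITGA4*, *PIK3CD*, *SLC1A5*, *TRIB3* and *MXD1* also held without the replicate term. Those of *COBLL1*, *BIN1*, *HSPB1*, *S100A4*, *TNFRSF11A* and *SLC26A1* were not followed gene by gene in that model.

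**Figure D1:**
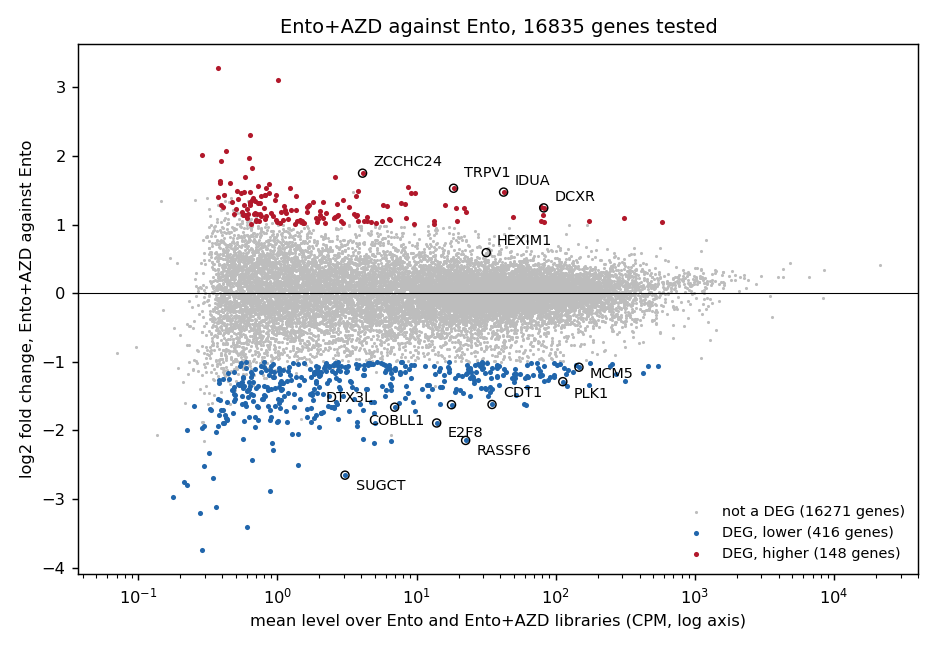
Log2 fold change of Ento+AZD against Ento (vertical) by mean level over the 6 libraries in CPM (horizontal, log axis), with a point per gene tested. Underexpressed DEGs (416) are blue and overexpressed DEGs (148) red, and the named genes are circled. Genes above 10 CPM make up a dense lower band that includes *CDT1*, *PLK1* and *MCM5*, whereas most red points lie below 10 CPM.

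The broadest fall was in genes of the cell division cycle. Entry into S phase is driven by E2F factors, which activate the genes that license and copy DNA, and passage through mitosis by genes whose promoters carry a CHR element read by the MuvB complexes. Of 262 genes tested from 6 lists (mitosis, replication, homologous recombination, nucleotide synthesis, G1 cyclins and kinases, E2F and retinoblastoma family), 188 were called lower and 3 higher. Over all genes the shares were 12.2% lower and 8.27% higher. They provided 71 of the 416 underexpressed DEGs (17.1%). The lower calls for these genes depend on the replicate term, as detailed for the first groups.

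Of 80 genes of the mitotic spindle, kinetochore and condensin, 79 were called lower and none higher, 31 of them as DEGs, against 12.2% of all genes lower. The exception was the kinetochore gene *ZWILCH*, with a log2 fold change of −0.16 (adjusted p = 0.258). The median log2 fold change over the list was −0.94, and the medians within replicate numbers 1, 2 and 3 were −0.90, −0.98 and −0.86. All 80 genes were lower in all 3 pairs, but only 1 had groups that did not overlap. The summed level of the list was 11191, 5206 and 12881 CPM in Ento replicates 1 to 3 and 6070, 2914 and 7404 CPM in Ento+AZD replicates 1 to 3. Ento replicate 2 was lower than Ento+AZD replicates 1 and 3, while each Ento+AZD library lay below its numbered partner. With DMSO the sums were 10622, 9191 and 14231 CPM. In every group the library with replicate number 2 was thus the lowest for this list. Without the replicate term 0 of the 80 genes were called.

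*CDK1*, the kinase that drives entry into mitosis, stood at 151, 62.8 and 188 CPM in Ento replicates 1 to 3 and at 72.3, 22.6 and 81.6 CPM with Ento+AZD. Its log2 fold change was −1.22 ± 0.17 (SE, adjusted p = 5.27e-04 by edgeR's quasi-likelihood test). *SPC25*, a subunit of the NDC80 kinetochore complex, went from 31.7, 14.3 and 37.1 CPM to 12.5, 4.29 and 15.4 CPM (log2 fold change −1.39). *KIF2C*, a kinesin that depolymerises microtubules, fell by 1.19 and *NUF2*, a partner of SPC25, by 1.10 on the log2 scale. *PLK1*, the mitotic kinase chosen here after its values were seen, stood at 185, 65.4 and 224 CPM with Ento and at 80.2, 22.3 and 96.3 CPM with Ento+AZD (log2 fold change −1.29). For all these genes the groups overlapped and each numbered pair fell.

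The mitotic and the replication genes are known targets of different regulators, and a promoter of each list is shown for the element that marks it. In the 250 bases before the transcription start (RefSeq, GRCh38.p14, both strands), the CHR element TTTGAA occurred in 28 of 69 mitotic promoters matched (40.6%), in 1 of 53 replication promoters (1.89%) and in 13.6% of all 27305 promoters. The E2F site, searched as TTTCCCGC or TTTGGCGC, occurred in 12 of the 53 replication promoters (22.6%), in 4 of the 69 mitotic promoters (5.8%) and in 1.96% of all. The CCAAT box (CCAAT) was found in 66.7% of the mitotic and 58.5% of the replication promoters, against 33.0% of all. These matches are a description of the sequence and not of factor binding. In the 2 stretches below capitals mark the CCAAT box and the CHR element of *PLK1* (chr16:23678639-23678888, plus strand), 73 and 29 bases before the start, and the E2F site of *CDT1* (chr16:88803539-88803788, plus strand), 35 bases before the start and read on the opposite strand.
PLK1: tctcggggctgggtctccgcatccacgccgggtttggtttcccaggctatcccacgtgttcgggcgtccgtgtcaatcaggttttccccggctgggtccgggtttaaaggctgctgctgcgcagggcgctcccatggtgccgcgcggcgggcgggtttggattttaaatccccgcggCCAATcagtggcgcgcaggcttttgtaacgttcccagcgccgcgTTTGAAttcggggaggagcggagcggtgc
CDT1: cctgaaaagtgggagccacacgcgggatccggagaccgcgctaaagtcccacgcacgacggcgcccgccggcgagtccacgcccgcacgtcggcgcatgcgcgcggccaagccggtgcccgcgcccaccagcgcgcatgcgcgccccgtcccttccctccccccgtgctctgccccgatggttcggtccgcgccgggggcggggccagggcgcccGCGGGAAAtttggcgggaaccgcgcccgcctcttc

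Of 63 DNA replication factors, 50 were called lower, 19 of them as DEGs, and 1 higher. The median log2 fold change was −0.82, with −0.73, −0.80 and −0.82 within the replicate numbers, and 57 genes were lower in all 3 pairs. Without the replicate term 1 gene was called lower, and replicate number 2 had the lowest summed level with Ento (4152 CPM) and with Ento+AZD (2769 CPM) but not with DMSO. *CDT1*, which loads the MCM helicase onto origins (16, 88803789 to 88809258, plus strand), stood at 51.3, 23.4 and 81.7 CPM in Ento replicates 1 to 3. With Ento+AZD it stood at 19.1, 5.53 and 27.6 CPM, a log2 fold change of −1.62 ± 0.21 (SE, adjusted p = 3.96e-04). *MCM5*, a subunit of that helicase, was at 195, 155 and 248 CPM with Ento and at 101, 72.3 and 109 CPM with Ento+AZD (log2 fold change −1.08 ± 0.11, SE). Its groups did not overlap, and the same held for *POLE2*, a subunit of DNA polymerase ε, with a log2 fold change of −1.58. *GINS3*, of the helicase complex, fell by 1.11 and *POLD3*, of polymerase δ, by 1.06 on the log2 scale, while *POLD4*, a small subunit of the same polymerase, rose by 0.54.

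Among upstream regulators, 9 of 20 genes of the E2F and retinoblastoma family and 10 of 19 G1 cyclins, kinases and kinase inhibitors were called lower, and none higher. *E2F8*, an atypical E2F that is itself a target of E2F1, was at 23.4, 11.2 and 30.7 CPM with Ento and at 5.92, 1.86 and 10.5 CPM with Ento+AZD. Its log2 fold change of −1.89 was among the 12 largest falls. *E2F2* fell by 1.63, *E2F7* by 1.24, *FOXM1*, the activator of late cell cycle genes, by 1.19 and *E2F1* by 0.57 on the log2 scale. *RB1* did not pass (adjusted p = 0.990). The G1/S phosphatase *CDC25A* fell by 1.5, cyclin A2 (*CCNA2*) by 1.36, *CCNE2* by 1.10 and *CDK2* by 1.02, whereas the CDK inhibitor *CDKN1A* did not pass (log2 fold change 0.0048, adjusted p = 0.997), at 0.786 to 1.05 CPM with Ento and 0.451 to 1.22 CPM with Ento+AZD. Without the replicate term 1 gene of the E2F list and 0 of the G1 list were called, and without Ento replicate 3 the G1 list had 5.

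Repair and nucleotide supply followed. Of 43 genes of homologous recombination and the Fanconi pathway, 24 were called lower and 1 higher. *FANCG*, of the Fanconi core complex, fell by 1.16, the checkpoint kinase *CHEK1* by 1.33 and *BRCA1* by 0.74 on the log2 scale, while the kinase gene *ATR* rose by 0.34, from between 110 and 127 CPM to between 139 and 164 CPM. Of 38 genes of nucleotide and one-carbon synthesis, 17 were called lower and 1 higher. The ribonucleotide reductase subunits *RRM2* and *RRM1* fell by 1.34 and 1.11, thymidine kinase *TK1* by 1.24 and thymidylate synthase *TYMS* by 1.20, and *IMPDH2* of guanine nucleotide synthesis rose by 0.28. Without the replicate term 1 gene of the first and 0 of the second list were called lower. Of 16 clustered histone genes tested, whose transcripts mostly lack a poly(A) tail, only *H4C15* was called, and higher, at under 2 CPM in every library.

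**Figure D2:**
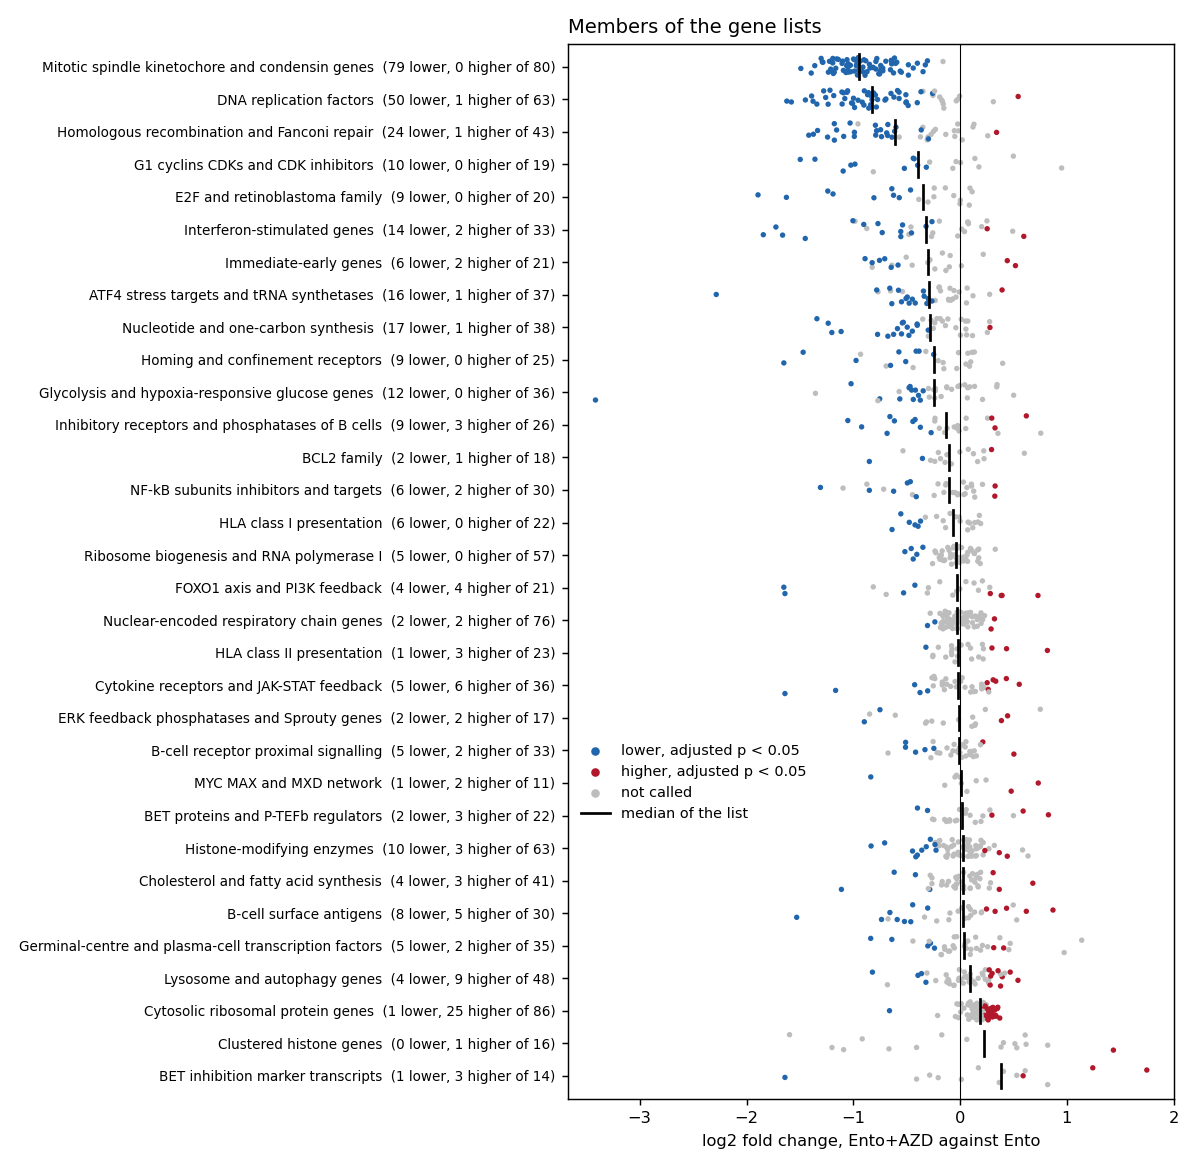
Log2 fold change of Ento+AZD against Ento for the tested members of each gene list (points, horizontal axis), with the list median as a black bar and the numbers called in brackets. The mitotic (79 of 80 lower), replication (50 of 63) and homologous recombination (24 of 43) lists lie furthest left, and the ribosomal protein list (25 of 86 higher) is shifted slightly to the right.

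Of 14 transcripts used as readouts of BET inhibition, 3 were called higher (21.4%) and 1 lower (7.14%) when AZD was added, against 8.27% and 12.2% of all genes. The higher number was 5 without DMSO replicate 3 and 6 in a fit of only the libraries compared, and the lower number was 0 without the replicate term. *DCXR*, a carbonyl reductase (17, 82035136 to 82037709, minus strand), was at 42.4, 56.8 and 47.4 CPM with Ento and at 106, 115 and 124 CPM with Ento+AZD. Its log2 fold change of 1.24 ± 0.10 (SE) had, with that of *COBLL1*, the smallest adjusted p of all genes (2.83e-05). *HEXIM1* rose from 24.4, 26.7 and 24.7 CPM to 34.8, 39.9 and 39.3 CPM (log2 fold change 0.59 ± 0.10, SE, adjusted p = 0.00137), and *ZCCHC24* by 1.75. The interleukin 7 receptor *IL7R* fell by 1.64. *DCXR*, *HEXIM1*, *ZCCHC24* and *IL7R* kept their groups apart. *MYC*, often lowered by BET inhibitors, stood at 386 to 582 CPM with Ento and at 410 to 507 CPM with Ento+AZD (log2 fold change 0.01 ± 0.08, SE, adjusted p = 0.934). Among its partners, the repressors *MXD1* and *MXD4* rose by 0.73 and 0.48 and *MXD3* fell by 0.84 on the log2 scale. These were the called genes of 11 in the MYC network (18.2% higher and 9.09% lower). The higher number was 1 without the replicate term, Ento replicate 1 or 3 or Ento+AZD replicate 1 or 3. The lower number was 0 without the replicate term. The BET gene *BRD2* did not pass, with a log2 fold change of −0.10. Of 22 BET proteins and regulators of P-TEFb, 3 were called higher, among them the elongation factor *ELL2* (log2 fold change 0.83), and 2 lower. These are shares of 13.6% and 9.09%, near those over all genes (8.27% and 12.2%). The higher number was 1 without Ento replicate 3 or Ento+AZD replicate 1 or 3. The lower number was 0 without Ento replicate 3, 1 without Ento replicate 1 or Ento+AZD replicate 1 or 3, and 4 without DMSO replicate 3.

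**Figure D3:**
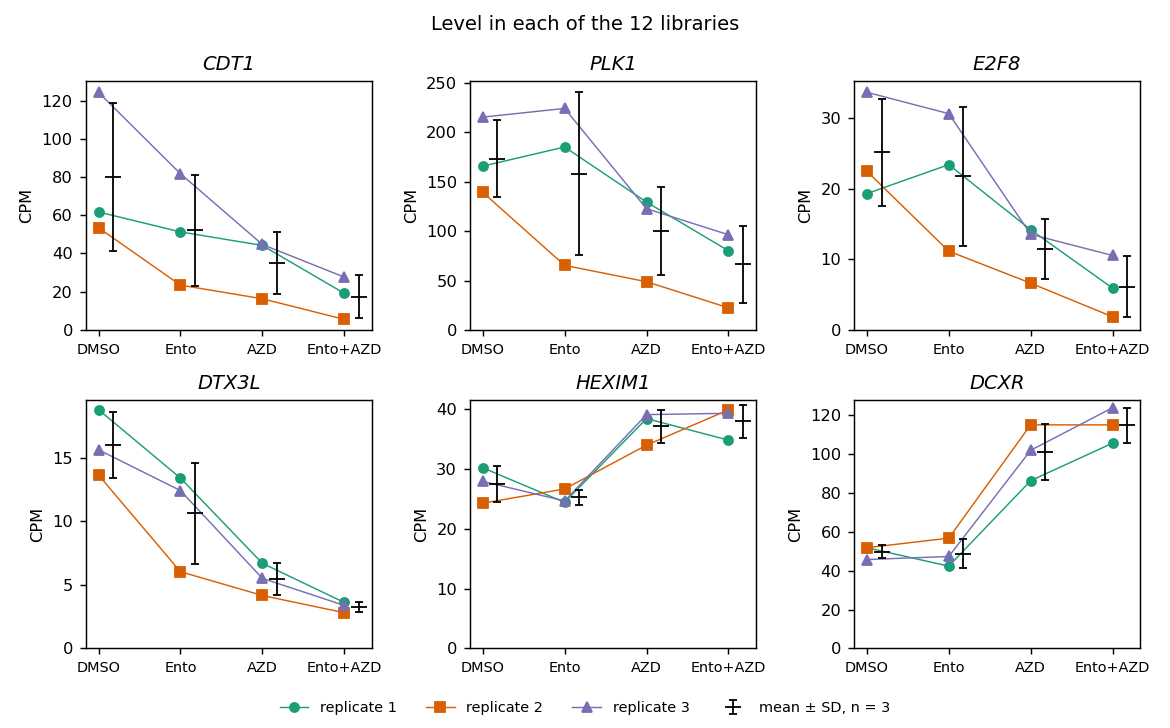
Level in CPM (vertical) of 6 genes in each of the 12 libraries by exposure (horizontal), with libraries of a replicate number joined by a line and the mean ± SD (n = 3) in black. *CDT1*, *PLK1* and *E2F8* were low in replicate number 2 yet fell from Ento to Ento+AZD in each pair, whereas *DTX3L*, *HEXIM1* and *DCXR* had groups that did not overlap.

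The largest falls included genes with roles outside the cell cycle. By rule, these were the 12 largest among DEGs alike in all pairs with at least 2 CPM in either group. *RASSF6*, a Ras association domain protein, went from 28.3, 22.5 and 60.6 CPM to 6.16, 8.10 and 9.31 CPM (log2 fold change −2.15 ± 0.21, SE). *GFI1B*, a transcriptional repressor of blood cells, went from 6.43, 6.76 and 4.27 CPM to 1.66, 2.24 and 0.959 CPM. *CD1C*, which presents lipid antigens, fell by 1.93, the meiotic recombinase *DMC1* by 2.50, the glia maturation factor *GMFG* by 2.06, *FSD1* by 2.06, *CAMKV* by 1.96, the ubiquitin ligase *HECW2* by 1.89, *NEBL*, a nebulin-related actin-binding protein, by 2.19 and the mitochondrial CoA transferase *SUGCT* by 2.65. Most of these genes were below 12 CPM with Ento. *DMC1* overlapped between groups, and the others named here did not.

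The 12 largest rises were by the same rule. *ZCCHC24*, described above, had the largest. *FAM222A* went from 4.29, 4.91 and 3.98 CPM to 11.9, 12.2 and 14.4 CPM, *TLL2*, a metalloprotease of the tolloid family, rose by 1.69, and *IQCN* went from 7.23, 4.81 and 3.49 CPM to 13.4, 18.3 and 10.9 CPM. *TARS3*, a threonyl-tRNA synthetase, rose by 1.46, *CEMIP2*, a cell surface hyaluronidase, by 1.49 with overlapping groups, and the membrane metalloprotease *MMP24* by 1.33. *COLQ*, the collagen tail of acetylcholinesterase, and *TMEM132B* rose by 1.30 and 1.31 with overlapping groups, and the antisense RNA *RAP2C-AS1* by 1.36 without overlap. *COLQ* and *RAP2C-AS1* share exons with *EAF1* and *RAP2C* on the opposite strand. *IDUA*, the lysosomal iduronidase, rose by 1.47 but shares exons with *SLC26A1* on the opposite strand, which rose by 1.29, and its groups overlapped through Ento replicate 2 at 51.9 CPM. *TRPV1* rose by 1.53 with overlapping groups and shares exons on its own strand with *SHPK*, which rose by 0.44. Reads from such overlapping genes may not be separable, as the use of strand in the counting is not given in the sources used here.

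Genes of the interferon response were lower more often than higher. Of 33 tested, 14 were called lower (42.4%, against 12.2% of all genes) and 2 higher (6.06%, against 8.27%), with 5 lower DEGs. The lower number was 3 without the replicate term, 9 without Ento replicate 1 and 8 without Ento replicate 3 or without Ento+AZD replicate 1 or 3. *DTX3L*, a ubiquitin ligase (log2 fold change −1.66 ± 0.17, SE), was at 13.4, 6.04 and 12.4 CPM with Ento and at 3.62, 2.81 and 3.38 CPM with Ento+AZD. *PARP9*, its binding partner, was at 17.8, 9.26 and 17.9 CPM with Ento and at 4.45, 4.86 and 3.84 CPM with Ento+AZD. Both genes kept their groups apart. They lie head to head on chromosome 3, with a *PARP9* start 38 bases upstream of that of *DTX3L* on the opposite strand and a second one 446 bases inside it, so that their exons overlap and their counts may not be independent. The stretch given is that before the *DTX3L* start, which also holds the first of these *PARP9* starts (chr3:122564088-122564337, plus strand). Most of it lies downstream of that *PARP9* start, so it does not show the bases before *PARP9*. The stretch held no match to the 2 interferon elements searched and therefore has no capitals. These were the ISRE core of a pair of GAAA blocks with 2 bases between them (10 of 25 promoters of the list, 3.07% of all) and TTCNNNGAA (7 of 25, 6.78% of all).
DTX3L: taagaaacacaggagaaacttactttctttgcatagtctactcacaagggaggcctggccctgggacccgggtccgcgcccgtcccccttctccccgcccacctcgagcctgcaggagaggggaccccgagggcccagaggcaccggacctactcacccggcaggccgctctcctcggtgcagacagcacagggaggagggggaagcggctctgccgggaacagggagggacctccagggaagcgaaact

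*EPSTI1*, another interferon-induced gene, fell by 1.45, the ISG15-conjugating enzyme *UBE2L6* by 1.84 from at most 1.79 CPM, and the RNase *ISG20* by 0.77 on the log2 scale. By contrast *IRF7*, the master regulator of type I interferon genes, rose by 0.60. The fall of *DTX3L* was of similar size without Ento, with a log2 fold change of −1.57 in AZD against DMSO. Of 22 genes of HLA class I presentation, 6 were called lower (27.3%, against 12.2% of all genes) and none higher. Among the 6 were the class I transactivator *NLRC5* (−0.64) and the immunoproteasome subunit *PSMB8* (−0.48). Without Ento replicate 1 or 3, or Ento+AZD replicate 1, 3 genes of this list were called lower.

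Receptors that hold B cells in the germinal centre or guide their exit were lowered as far as they were called. Of 25, 9 were lower (36%, against 12.2% of all genes) and none higher. Without the replicate term 2 were lower, among them *ITGA4*. *S1PR2* and its G protein *GNA13*, which confine B cells to the follicle, fell by 0.41 and 0.38 on the log2 scale. *S1PR2* went from 246, 279 and 222 CPM to 199, 204 and 159 CPM without overlap. *S1PR4*, a sphingosine-1-phosphate receptor, fell by 1.47, *GPR174* by 0.97, the cannabinoid receptor *CNR2* by 0.65 and the integrin *ITGA4* by 0.57. *CXCR4* fell by 0.51 (adjusted p = 0.0403), with overlapping groups of 51.7 to 117 CPM and 44 to 82.5 CPM.

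In BCR signalling itself, 5 of 33 proximal genes were called lower and 2 higher, near the shares over all genes (12.2% and 8.27%). The lower number was 3 without Ento replicate 3 or Ento+AZD replicate 1 or 3 and 1 without the replicate term, and the higher number was 1 without any 1 of the Ento or Ento+AZD libraries or without AZD replicate 1 or 2. *PIK3CD*, the catalytic subunit PI3Kδ, fell by 0.51 and the adaptor *BLNK* by 0.33, whereas *PLCG2* rose by 0.21 and *RASGRP3* by 0.50 on the log2 scale. *SYK* itself stood at 523 to 711 CPM with Ento and 589 to 765 CPM with Ento+AZD (log2 fold change 0.12, adjusted p = 0.325). Of 26 inhibitory receptors and phosphatases, 9 were lower (34.6%) and 3 higher (11.5%), against 12.2% and 8.27% of all genes. None was called without the replicate term. The lower number was 5 without Ento or Ento+AZD replicate 1, and the higher number was 0 without Ento replicate 3 and 1 without Ento replicate 1 or Ento+AZD replicate 1 or 3. *DOK2*, an adaptor that restrains kinase signalling, fell by 0.92, *FCRL3* by 0.68 and *CD72* by 0.66. *CD22*, an inhibitory co-receptor, rose by 0.62. Of 30 surface antigens 8 were lower (26.7%) and 5 higher (16.7%), against 12.2% and 8.27% of all genes. The largest fall among them was that of *CD84*, a receptor of the SLAM family, from 14.3, 9.62 and 12.9 CPM to 4.70, 4.24 and 3.72 CPM.

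Downstream of these receptors, 6 of 21 immediate-early genes were lower (28.6%, against 12.2% of all genes) and 2 higher (9.52%, near the 8.27% of all genes). Without the replicate term both numbers were 0. The lower number was 10 without the filter on low counts, and the higher number was 4 without DMSO replicate 3. *ZFP36* and *ZFP36L2*, which promote decay of mRNAs with AU-rich elements, fell by 0.82 and 0.71, and *JUNB* by 0.58. *JUN* fell by 0.89 in spite of a wide spread between replicate numbers, from 52.6, 5.73 and 23.7 CPM to 33.6, 2.38 and 12.5 CPM. *BTG1*, an antiproliferative gene, and *IER5* rose by 0.44 and 0.52. The ERK phosphatases *DUSP1* and *DUSP2* fell by 0.90 and 0.75, and *SPRED2* and *PEA15* rose, of 17 tested (11.8% each way, near the shares over all genes). The number higher was 0 without Ento replicate 3 and 1 without Ento or Ento+AZD replicate 1, AZD replicate 2 or 3 or Ento+AZD replicate 3. Of 30 NF-κB genes 6 were lower (20%, against 12.2% of all genes) and 2 higher (6.67%, near the 8.27% of all genes). The lower number was 3 without Ento replicate 2 or 3 or Ento+AZD replicate 3. The called genes included the antiapoptotic target *BCL2A1* (−0.85), *CFLAR* (−0.49) and the lymphotoxins *LTA* and *LTB*. *BCL2* rose by 0.29 (adjusted p = 0.0441) and *BCL2L1* fell by 0.35, the other called genes of 18 in the BCL2 family. Its shares of 11.1% lower and 5.56% higher were no larger than those over all genes. Of 36 cytokine receptor and JAK-STAT genes 5 were lower (13.9%, near the 12.2% of all genes) and 6 higher (16.7%, against 8.27%). The kinase *PIM1* was at −1.17 and *STAT3* at 0.43.

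Among metabolic genes, 16 of 37 ATF4 stress targets and tRNA synthetases were lower (43.2%) and 1 higher (2.7%), against 12.2% and 8.27% of all genes. The glutamine carrier *SLC1A5* fell by 0.51, from 127, 124 and 132 CPM to 87.7, 82.8 and 100.1 CPM, and the pseudokinase *TRIB3* by 0.64, both without overlap, and *ATF4* itself by 0.34. The number lower was 2 without the replicate term, 7 without Ento+AZD replicate 1 and 10 without Ento replicate 3. Of 36 genes of glycolysis 12 were lower (33.3%, against 12.2% of all genes) and none higher, with *LDHA* at −0.47 and *ENO1* at −0.48. The number lower was 0 without the replicate term. It was 5, 7 and 2 without Ento replicates 1, 2 and 3, and 4 without Ento+AZD replicate 1 or 3. In AZD against DMSO 2 of the glycolysis genes were lower and 5 higher, against 12.7% and 9.57% of all genes. There *LDHA* had a log2 fold change of 0.38 (adjusted p = 0.0594, quasi-likelihood test). Of 41 cholesterol and fatty acid genes 4 were lower (9.76%) and 3 higher (7.32%), no larger shares than over all genes (12.2% and 8.27%), with the elongase *ELOVL6* at −1.11. Without Ento or Ento+AZD replicate 1, 1 was called each way, and without Ento replicate 3 the numbers were 2 and 1.

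Cytosolic ribosomal protein genes moved by little and upwards, with 25 of 86 called higher against 8.27% of all genes, and *RPL39L* lower. Their median log2 fold change was 0.18. Their summed level was 69994, 76302 and 68351 CPM with Ento and 86325, 80980 and 80194 CPM with Ento+AZD. Without the replicate term 0 were called higher. The number was 2 and 7 without Ento replicates 1 and 3, 5 and 3 without Ento+AZD replicates 1 and 3, and 16 without AZD replicate 2. Reads of their pseudogene copies make the members uncertain. *RPL12*, *RPL36* and *RPS28* rose by 0.33, 0.37 and 0.35. Of 57 genes of ribosome biogenesis 5 were lower (8.77%, under the 12.2% of all genes) and none higher, whereas in AZD against DMSO 25 were higher (9.57% of all genes). Of 48 lysosome and autophagy genes, 9 were higher (18.8%, against 8.27% of all genes) and 4 lower (8.33%, under the 12.2% of all genes). *LAMP2* was at 0.40 and *WIPI1* at 0.54, and the higher number was 1 without Ento replicate 3.

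The second question was which effects of Ento the added AZD reversed. Ento against DMSO gave 185 overexpressed DEGs (1.10% of genes tested) and 90 underexpressed DEGs (0.535%). Both contrasts share the Ento libraries, in which an error of measurement enters them with opposite signs, and the counts are given as a description. Of the 185 genes raised by Ento, 53 (28.6%) were called lower in Ento+AZD against Ento, 10 were called higher still and 122 were not called. Of the 90 genes lowered by Ento, 9 (10.0%) were called higher, 15 were called lower still and 66 were not called. Over all genes tested, 12.2% were called lower and 8.27% higher in Ento+AZD against Ento. The 10.0% thus lies near the share over all genes. Without the replicate term 6 and 0 genes were reversed, and without Ento replicate 3 the numbers were 27 and 1.

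For the 53 genes the median log2 fold change was 1.40 for Ento against DMSO, −1.29 for Ento+AZD against Ento and 0.16 for Ento+AZD against DMSO. Relative to DMSO 37 of the 53 were not called with both agents, 14 were still higher and 2, *COBLL1* and *NEBL*, were lower. Of all genes, 19.2% were called higher and 20.8% lower in Ento+AZD against DMSO. In AZD against DMSO, which shares no library with Ento+AZD against Ento, 50 of the 53 had a negative log2 fold change, 30 of them called (12.7% of all genes were called lower there), with a median of −0.94. Thus most of these genes were lower with AZD also in cells that had not received Ento. Of the 53, 12 stayed under 2 CPM in the groups compared and 13 have uncharacterised LOC or LINC symbols.

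**Figure D4:**
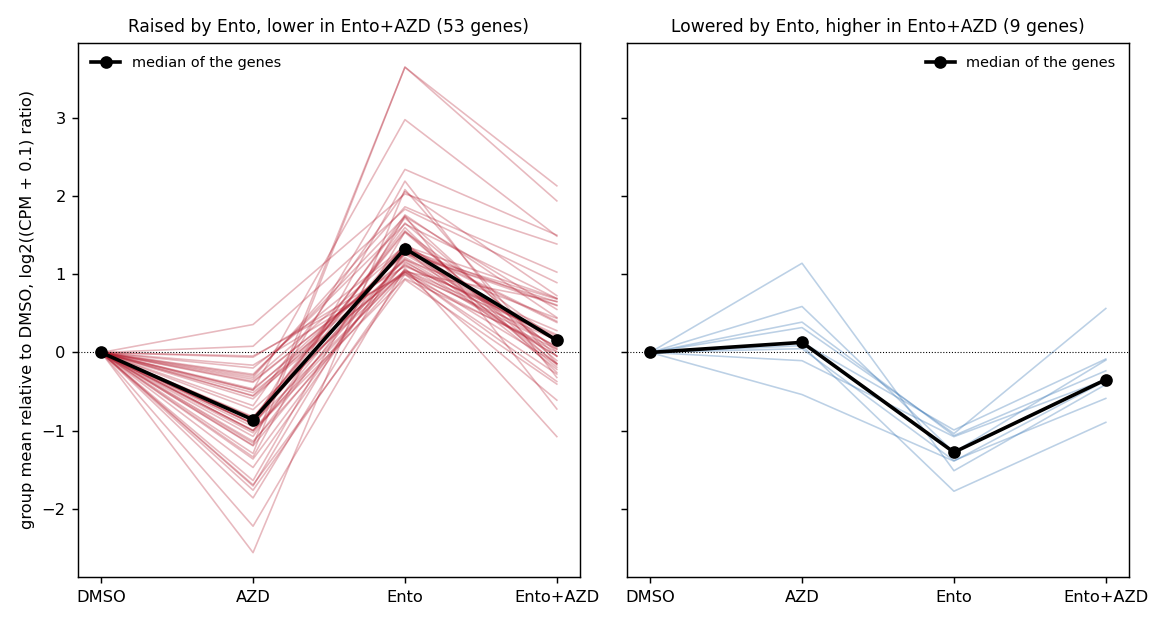
Group means relative to DMSO, as log2 of the ratio of CPM + 0.1 (vertical), across the 4 exposures (horizontal) for the genes raised by Ento and lower in Ento+AZD (left, 53 genes) and the genes lowered by Ento and higher in Ento+AZD (right, 9 genes), with a line per gene and the median in black. On the left the AZD group lies below DMSO for most genes and the Ento+AZD group near DMSO, and on the right the AZD group lies near DMSO.

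Of the named reversed genes, *RASSF6* was at 7.23, 7.51 and 11.3 CPM with DMSO and at 28.3, 22.5 and 60.6 CPM with Ento. With Ento+AZD it was back at 6.16, 8.10 and 9.31 CPM, and with AZD at 1.85, 1.02 and 1.31 CPM. *SUGCT* was at 1.39, 1.33 and 0.511 CPM with DMSO, at 6.90, 3.07 and 5.85 CPM with Ento and at 1.42, 0.715 and 0.395 CPM with Ento+AZD. For both genes Ento+AZD overlapped with DMSO and lay apart from Ento.

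*LTB*, which encodes the membrane anchor of lymphotoxin and is an NF-κB target, was reversed in part. It stood at 9.94, 14 and 7.23 CPM with DMSO, at 31.2, 62.5 and 34.1 CPM with Ento, at 27.4, 34.7 and 19.8 CPM with Ento+AZD and at 14.9, 14.7 and 10.4 CPM with AZD. The log2 fold changes were 2.03 ± 0.15 (SE) for Ento against DMSO and −0.62 ± 0.14 (SE) for Ento+AZD against Ento, with 1.41 remaining against DMSO. AZD against DMSO gave 0.40 (adjusted p = 0.0758). Its promoter is shown for the NF-κB site, searched with the exact letters in capitals below on both strands and found in 0.183% of all promoters and in 2 of 26 of the NF-κB list. In the 250 bases before the start (chr6:31582426-31582675, minus strand) capitals mark that site, 86 bases before the start and read on the opposite strand.
LTB: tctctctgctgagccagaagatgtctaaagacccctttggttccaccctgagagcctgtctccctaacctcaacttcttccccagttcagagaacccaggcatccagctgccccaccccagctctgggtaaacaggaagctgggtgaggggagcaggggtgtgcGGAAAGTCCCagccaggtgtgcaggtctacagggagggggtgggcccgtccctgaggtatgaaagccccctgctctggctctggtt

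*ABCA6*, a lipid transporter, had a similar pattern, with 5.56, 7.65 and 3.22 CPM with DMSO, 16.8, 30.3 and 12.2 CPM with Ento and 11.1, 12.7 and 6.99 CPM with Ento+AZD. *FCGBP*, which encodes a mucin-like IgG-binding protein, had log2 fold changes of 1.93 for Ento against DMSO and −0.86 for Ento+AZD against Ento. *TMPRSS15*, the protease enteropeptidase, had 2.49 and −1.01. *PLEKHG7* had 4.23 and −1.78 but rested on 0 to 0.275 CPM with DMSO and on 0.344 to 6.76 CPM with Ento. These genes, too, remained called above DMSO with both agents.

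Other reversed genes of B-cell interest were chosen after their values were seen. *COBLL1*, an actin regulator known from B-cell malignancies, was at 12.8, 12.5 and 14.9 CPM with DMSO, at 22.5, 27.0 and 31.0 CPM with Ento and at 8.17, 7.39 and 10.7 CPM with Ento+AZD, below DMSO in every library. *FCRL3* went from 17.7 to 34.4 CPM with DMSO to 59.6 to 78.3 CPM with Ento and 34.2 to 53.4 CPM with Ento+AZD. *BIN1*, a membrane-bending adaptor, had a log2 fold change of −1.15 in Ento+AZD against Ento and was not called against DMSO. The homing receptor *S1PR4*, described above, also belonged to this group, with a log2 fold change of 1.66 for Ento against DMSO.

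Effects of Ento that were not reversed included *BACH2*, a transcription factor that restrains plasma cell differentiation. It was at 91.6 to 156 CPM with DMSO, at 236 to 351 CPM with Ento and at 220 to 350 CPM with Ento+AZD (log2 fold change −0.03, adjusted p = 0.845). *SLC30A4*, a zinc transporter, had log2 fold changes of 1.32 for Ento against DMSO and −0.04 for Ento+AZD against Ento. Both were chosen after their values were seen.

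Genes lowered by Ento and raised by added AZD were few. *TUFT1*, which encodes tuftelin, was at 4.13, 3.71 and 6.56 CPM with DMSO, at 1.77, 2.35 and 2.55 CPM with Ento and at 3.57, 3.86 and 3.84 CPM with Ento+AZD (log2 fold change 0.77 ± 0.20, SE). *CAPN5*, a calpain, rose by 0.94, *C12orf77* by 0.82 and the troponin T gene *TNNT3* by 1.01 (adjusted p = 0.0455). Apart from *TNNT3*, the named genes kept Ento and Ento+AZD apart. For the 9 genes the median log2 fold change was −1.42 for Ento against DMSO, 0.94 for Ento+AZD against Ento and 0.12 for AZD against DMSO, in which 1 of them was called in the opposite direction to Ento.

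In 25 genes added AZD carried the change further in the direction of Ento, 15 of the 90 downwards and 10 of the 185 upwards. These numbers are not far from the shares of all genes called lower (12.2%) and higher (8.27%) when AZD was added. The small heat shock gene *HSPB1* was at 10.8 to 12.4 CPM with DMSO, 4.20 to 6.10 CPM with Ento and 1.24 to 2.54 CPM with Ento+AZD, and the cystine carrier *SLC7A11* at 28.1 to 41.1, 12.9 to 18 and 7.96 to 8.95 CPM. *S100A4*, a calcium-binding protein, fell by 0.57 and *TNFRSF11A*, the receptor RANK, by 2.13 relative to Ento. The fall of *TNFRSF11A* rested on few counts, 30, 9 and 21 with Ento and 4, 3 and 5 with Ento+AZD. *FCER2*, the B-cell IgE receptor CD23, rose by 0.87 in the fit, but from 3.78, 14.8 and 1.23 CPM to 8.76, 14.5 and 5.13 CPM, so that the groups overlapped and replicate number 2 did not rise. The groups of *S100A4* overlapped too. These were chosen after their values were seen.

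The effect of AZD in the presence of Ento was then set against its effect in its absence. Both contrasts share no library. Across the 16835 genes their log2 fold changes had a Pearson's r of 0.657 and a Spearman's rho of 0.618, and r was 0.751 across the 12655 genes with a mean of at least 2 CPM. These are correlations across genes, which are not independent replicates. Of the 416 underexpressed DEGs, 409 had the same sign in AZD against DMSO and 298 were called lower there, against 73.2% of all genes with the same sign in both contrasts and 12.7% called lower with AZD, with medians of −1.29 with Ento and −0.96 without. Of the 148 overexpressed DEGs, 138 had the same sign, 56 were called higher (9.57% of all genes), and 1 was called in the opposite direction. The medians were 1.21 with and 0.73 without Ento. The DEGs were selected by their size with Ento, and these medians are therefore no comparison of effect sizes.

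**Figure D5:**
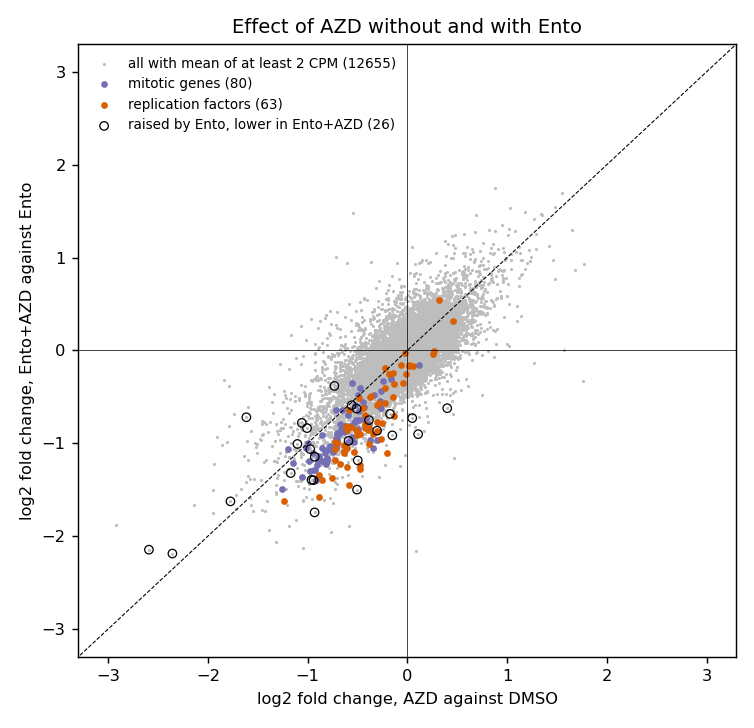
Log2 fold change of Ento+AZD against Ento (vertical) by that of AZD against DMSO (horizontal) for 12655 genes with a mean of at least 2 CPM, with 80 mitotic genes in purple, 63 replication factors in orange and 26 reversed genes circled. The dashed line marks equal effects, and most mitotic and replication genes lie below it in the lower left quadrant.

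The test of the difference itself, the interaction of both agents, called 0 of 16835 genes at an adjusted p under 0.05 by edgeR's quasi-likelihood test (smallest adjusted p 0.444). At an unadjusted p under 0.05 it gave 1652 genes. DESeq2 called 7 and limma voom 0, while 278 were called without the filter on low counts and 213 without DMSO replicate 2. For genes of at least 2 CPM the median SE of the interaction was 0.146 on the log2 scale. Of the 188 lowered cell cycle genes, 182 had a larger fall with Ento than without, and of all 2047 genes called lower 1541 (75.3%) did. Both sets were selected by their fall with Ento, which favours a larger fall there, so these numbers are a description. Of the 262 cell cycle genes, the interaction reached an unadjusted p under 0.05 in 52 with a negative and 5 with a positive sign, against 5.59% and 4.22% of all genes. None of these passed the adjustment.

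Within AZD against DMSO, the medians of the mitotic list were −0.24, −0.93 and −0.70 in replicate numbers 1 to 3, and those of the replication list −0.05, −0.68 and −0.41. The corresponding falls with Ento were more even between numbers. In AZD against DMSO 67 of the 80 mitotic genes and 30 of the 63 replication factors were called lower. For *MCM5* the log2 fold change was −0.64 without and −1.08 with Ento (interaction unadjusted p = 0.0101), and for *CDC6*, the licensing factor, −0.47 and −1.24 (unadjusted p = 0.0136).

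The 5 genes with the smallest interaction p were *ABLIM1*, *CREM*, *SLC12A5*, *ABCA6* and *IGLC3*, each with an adjusted p of 0.444. *ABLIM1*, an actin-binding LIM protein, was at 167 to 201 CPM with DMSO and 68.0 to 93.7 CPM with AZD, but at 180 to 201 CPM with Ento and 137 to 195 CPM with Ento+AZD. *CREM*, a cAMP-responsive factor, was at 29.0 to 35.9 CPM with DMSO, 42.6 to 61.0 CPM with AZD, 29.8 to 32.5 CPM with Ento and 25.6 to 33.4 CPM with Ento+AZD. In both genes the AZD libraries lay apart from the other groups. *IGLC3*, an immunoglobulin λ constant gene whose near-identical copies make its counts uncertain, was at 0.275 to 1.51 CPM with DMSO and at 1.89 to 5.77 CPM in the other groups. *SLC12A5*, a chloride carrier, was at 1.06 to 1.24 CPM with DMSO and at 0.145 to 0.587 CPM in the other groups.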

How the data were processed

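Polyadenylated RNA of SU-DHL-4 was sequenced as single reads. Per the labels and methods, the authors used TrimGalore with CutAdapt for trimming and GRCh38.p13 for alignment, and obtained the deposited counts with Rsubread. These are whole, unnormalised numbers per gene. The strand setting and annotation release are not given in the sources used here. A table of log2 values was not used.

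Counts were analysed with edgeR 4.0.16 in R 4.3.3, with limma 3.58.1 and DESeq2 1.42.0 as alternatives. The filterByExpr function (minimum count 10, minimum total 15) and TMM normalisation were applied to all 12 libraries, and 1 model without intercept held the exposure and the replicate number. The quasi-likelihood F-test was applied to each contrast, with p-values adjusted after Benjamini and Hochberg. The standard error (SE) is the size of the log2 fold change over the root of its F statistic. CPM values are TMM-normalised. Within-pair list medians are of log2 ratios of CPM + 0.5.

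The replicate numbers come from the labels and the authors' model has a batch term, whose meaning is not given. Deviations from the group means correlated at 0.213 to 0.703 for libraries of the same number (18 pairs) and at −0.627 to 0.326 for others (36 pairs), so the numbers were taken as pairing the libraries. Libraries of a group differed beyond counting noise (chi-square per degree of freedom 8.21 to 48.5).

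Genes were named by 4 rules, namely the 12 largest rises and falls among DEGs alike in all pairs at 2 CPM or more, the 8 reversed genes of each kind with the largest effect of Ento, up to 6 genes of a list in order of adjusted p, and the 5 smallest interaction p-values. Further genes were chosen after their values were seen, which beside those marked in the text applies to *ATF4*, *ATR*, *CDC6*, *CXCR4*, *E2F1*, *FOXO3*, *GPR174*, *IMPDH2*, *IRF7*, *JUN*, *LDHA*, *POLD3*, *POLD4*, *SESN3*, *TYMS*, and to *SHPK* and *SLC26A1*, which overlap named genes. The comparison, gene lists and rules were chosen with earlier results of these data known. Some genes covered by the rules are not reported here. Coordinates of genes are those of GENCODE v44 on GRCh38, and promoter sequences are those of RefSeq on GRCh38.p14, matched by symbol for 10473 of the 16835 genes tested. The code was tested on simulated data before use.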

Additional observations from a re-analysis of the deposited data

How the results depend on the processing

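The choice that mattered most was the replicate term. In the model without the replicate block, the 564 DEGs of Ento+AZD against Ento became 83 (81 of them shared), the 3440 called genes 206, the 53 reversed genes raised by Ento 6 and the 9 reversed genes lowered by Ento 0. Of 438 named or listed genes, 29 kept their status as called or not called. These include *ABLIM1*, *CREM*, *SLC12A5* and *IGLC3*, which were called in neither model. With no fold change threshold there were 3440 DEGs, and with a fold change over 1.5 there were 1472. Leaving out a library gave 319 to 677 DEGs, 1402 to 4083 called genes (1805 without Ento replicate 1, 2053 without Ento+AZD replicate 1, 1402 without Ento replicate 3, 1881 without Ento+AZD replicate 3), 27 to 57 reversed genes raised by Ento and 1 to 11 lowered by it (5 without Ento replicate 1, Ento+AZD replicate 2 or DMSO replicate 3, 2 without Ento+AZD replicate 1, 1 without Ento replicate 3). Small list counts moved too, with the 5 surface antigens called higher at 0 without Ento or Ento+AZD replicate 1 or 3, the 8 lower at 5 without Ento or Ento+AZD replicate 3, and the 6 cytokine receptor and JAK-STAT genes called higher at 1 without Ento replicate 3. The interaction, with 0 calls, had 7 by DESeq2, 278 without the filter on low counts and 0 to 213 when a library was left out, the highest without DMSO replicate 2. The cause was not tested. *CREM*, not called, lay between −0.1132 and 0.0665 with a library left out, with a change of sign to 0.0665 without Ento replicate 2 and 0.0067 without Ento+AZD replicate 2. DESeq2 gave 409 DEGs, limma voom 566, and RLE and upper quartile scaling 564 and 554. Upper quartile scaling moved the share of underexpressed DEGs from 73.8% to 70.0%. At 0.0393 to 0.0564 CPM per count, genes under 1 CPM rest on few counts.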

Other observations

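Some groups of genes moved little when AZD was added to Ento. Of 76 nuclear-encoded genes of the respiratory chain, 2 were called higher (*NDUFA10* and *NDUFV3*, complex I) and 2 lower (*SDHA*, complex II, and *NDUFA9*), with a median log2 fold change of −0.03. These are 2.63% each way, under the 8.27% higher and 12.2% lower over all genes. Of 23 genes of HLA class II presentation, 3 were higher (13%) and 1 lower (4.35%), with the invariant chain *CD74* at 0.44 and the protease *LGMN* at 0.82. Of 35 transcription factors of the germinal centre and plasma cell, 5 were lower (14.3%) and 2 higher (5.71%), near the shares over all genes. Among them were *IKZF2* (−0.84), *MYBL2* (−0.64), *POU2AF1* (−0.28), *IRF8* (0.31) and *MEF2B* (0.41).

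Of 63 histone-modifying enzymes, 10 were called lower (15.9%) and 3 higher (4.76%), near the shares over all genes (12.2% and 8.27%). The H3K36 methyltransferase *NSD2* fell by 0.83, the H3K9 methyltransferase *SUV39H1* by 0.71, the H4K20 methyltransferase *KMT5A* by 0.40, and the polycomb subunits *EED* and *EZH2* by 0.45 and 0.36 on the log2 scale, while the deacetylase *HDAC6* rose by 0.44. Of 21 genes of the FOXO1 axis and PI3K feedback, 4 were lower and 4 higher (19% each, against 12.2% and 8.27% of all genes). The sestrins *SESN1*, *SESN2* and *SESN3* rose by 0.73, 0.39 and 0.39, *FOXO3* rose by 0.28, and *KLF6* and the insulin receptor *INSR* fell by 0.53 and 0.42. The higher number was 0 without the replicate term or Ento replicate 3. It was 1 without Ento replicate 1 or Ento+AZD replicate 3, and 2 without replicate 2 of Ento, AZD or Ento+AZD. The lower number was 1 without the replicate term and 2 without Ento replicate 1 or Ento+AZD replicate 3. It was 7 in a fit of only the libraries compared and 8 without the filter on low counts. *EZH2* and *HDAC6* were chosen after their values were seen.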
